A study of Rattus norvegicus with 8 samples.

Results

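The 10 genes described here encode subunits of voltage-gated calcium channels: the pore subunit genes Cacna1a, Cacna1b, Cacna1c, Cacna1d, Cacna1e, Cacna1g, Cacna1h and Cacna1i, and the alpha2delta subunit genes Cacna2d1 and Cacna2d2. They were chosen by name, as every non-control spot of the arrays whose gene name matched, which gave 31 of 43379 spots and 22 of 41012 probes, and 10 of 35199 gene names. A total of 9 of the 10 genes were quantified in every rat, and Cacna2d2 was not.

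A voltage-gated calcium channel opens when the membrane depolarizes and lets calcium into the cell through its pore subunit. The P/Q-type (Cacna1a) and N-type (Cacna1b) channels trigger transmitter release at presynaptic terminals, the L-type channels (Cacna1c, Cacna1d) carry calcium that reaches the nucleus and drives gene expression, and the R-type (Cacna1e) and T-type (Cacna1g, Cacna1h, Cacna1i) channels shape firing and burst discharge. The alpha2delta subunits bring the pore to the membrane and Cacna2d1 encodes the target of gabapentin, a drug used against seizures.

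RNA of the dentate gyrus (DG) of 8 adult female Sprague-Dawley rats was measured, each of 150 to 200 g at purchase and ovariectomized (OVX) a week before hormone treatment. All 8 rats underwent status epilepticus (SE), induced by 16 mg/kg of kainic acid and ended after 5 h with pentobarbital according to the sample records. The 4 COS rats (castrated, oil-injected, SE) received oil, and the 4 CES rats (castrated, estradiol-replaced, SE) received 4 doses of 2 μg of estradiol (estradiol benzoate in the study's methods) at intervals of 24 h, of which 2 preceded and 2 followed SE. The study's methods state another kainic acid dose, another drug to end SE and all estradiol injections before SE, so the exact schedule behind these samples is not settled by the sources used here. Rats without SE were not analysed here, so each difference below is between SE rats with and without estradiol (E2). Each of the 4 arrays, all on 1 slide, carried 2 rats of the same group, 1 labeled with Cy3 (replicates 1 and 3) and 1 with Cy5 (replicates 2 and 4).

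Over all 21332 genes quantified, 1238 were higher and 6038 lower in CES by limma with Benjamini-Hochberg adjustment, and the median difference was -0.25 on the log2 scale. That shift depended on the scaling, since the split of calls was 3048 higher and 1901 lower after loess, 3055 and 2221 after quantile normalization, 3348 and 1718 when every channel was scaled over the same spots, and 3275 and 1927 in the deposited log2 table. With spots required to reach 3 times their background the split was 1272 and 2828. Here and below, loess stands for loess within each array followed by quantile normalization of average intensities between arrays (Aquantile). These steps were not run separately, so a change after loess cannot be credited to either alone. Between 30690 and 38553 spots were valid per rat, meaning a foreground of at least 2 times the local background. Of the dentate granule cell markers 3 of 6 quantified were lower in CES (Dsp, C1ql2 and Tdo2) and none was higher, with a summed log2 level of 4.32 to 5.32 in COS and 4.38 to 5.13 in CES, and Prox1 was not quantified. No rat of either group showed Tdo2 well above background, and Calb1, C1ql3 and Rasgrp1 were not called. Of the CA pyramidal cell markers 4 of 5 were higher in CES (Wfs1, Fibcd1, Pou3f1 and Nptx1), with a summed log2 level of 4.84 to 5.73 in COS and 5.56 to 6.43 in CES, though Fibcd1 was well above background in 2 CES rats and none of the COS rats. The marker lists, here and below, were summarized under the main processing only and not under the other scalings.

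Probes are 60-base oligonucleotides, and the genes differed in how many of them could be read. The sequences below are those of probes on which later results turn and that hold a reading frame without an internal stop codon. They are given 5′ to 3′ as the array design lists them, with positions on build rn4, and all lie on the minus strand, where a higher coordinate is closer to the 5′ end of the transcript. Capitals mark a stop codon that closes the frame at the last base. The interval listed for the Cacna1e probe at chr13:69372611-69372665 is shorter than its 60-base sequence.
Cacna1a, chr19:25194788-25194847: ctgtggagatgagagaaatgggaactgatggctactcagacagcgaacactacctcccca
Cacna1d, chr16:5465138-5465197: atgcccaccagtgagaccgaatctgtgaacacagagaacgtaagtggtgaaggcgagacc
Cacna1e, chr13:69372611-69372665: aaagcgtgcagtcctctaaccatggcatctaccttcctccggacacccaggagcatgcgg
Cacna1e, chr13:69367332-69367391: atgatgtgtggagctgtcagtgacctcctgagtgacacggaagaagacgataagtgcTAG
Cacna1g, chr10:83044389-83044448: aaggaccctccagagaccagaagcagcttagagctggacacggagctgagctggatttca

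Of the 9 genes quantified, 4 were higher in CES (Cacna1a, Cacna1b, Cacna1g and Cacna2d1), none was lower and 5 were not called, a call being a limma adjusted p under 0.05. Of all genes 34.1% were called, 5.8% higher and 28.3% lower. The difference was above 0 in 6 of the 9, called or not, and in 31.5% of all genes. These shares belong to the main processing, where the median difference of all genes was -0.25. After loess that median was 0.055, and 5 of the 9 genes were called higher, as were 3048 of all 21332 genes. The median difference of the 9 genes was 0.33 on the log2 scale, with the highest at 1.08 and the lowest at -0.24. All 9 lay above the median difference of all genes, as did 8 of 10 other channel genes. So did 19 of 26 channel regulator genes and 4 of 4 neuron markers. Cacna1i and Cacna1e lay above it by only 0.01 and 0.04, and in other settings went as low as -0.40 and -0.05 relative to it. Fewer cells of a type and less RNA per cell cannot be told apart in tissue of this kind. The CA pyramidal cell markers given above rose as well, and their part in these differences was not tested.

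Cacna1b, the N-type pore subunit, had the largest difference of the 9 genes. Its log2 level, where 0 is the median valid spot of the channel, was 2.89, 2.37, 3.24 and 2.53 in COS replicates 1 to 4 and 4.20, 3.11, 4.20 and 3.83 in CES replicates 1 to 4. CES replicate 2 lay just under the highest COS rat, and the other 3 CES rats lay above every COS rat. The COS rats averaged 2.76 ± 0.39 (SD, n = 4) and the CES rats 3.83 ± 0.52 (SD, n = 4). The difference of 1.08 (SE 0.19) corresponds to 2.11-fold and had a limma adjusted p of 0.0052, and it exceeded that of 98.3% of all genes. The value rests on the probe at chr3:2873479-2873538, the one closest to the 3′ end. The other Cacna1b probes, at chr3:2898094-2898153 and chr3:2955905-2955964, were not well above background in any rat.

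Cacna1a, the P/Q-type pore subunit of presynaptic terminals, was also higher in CES. Its log2 level was -0.95, -1.30, -0.88 and -1.85 in COS replicates 1 to 4 and -0.07, -0.95, -0.14 and -0.51 in CES replicates 1 to 4. CES replicate 2 again fell inside the COS range, reaching the level of COS replicate 1, and the other 3 CES rats were above all COS rats. The difference was 0.83 (SE 0.18), or 1.77-fold, with a limma adjusted p of 0.0092. Only 3 of the 4 COS rats, against all 4 CES rats, showed Cacna1a well above background, so the size of this fold is uncertain. The gene value hides a disagreement between its probes that is described further on.

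Cacna1g, the T-type pore subunit behind low-threshold bursts, had log2 levels of -0.41, -0.62, -0.58 and -1.39 in COS replicates 1 to 4. In CES replicates 1 to 4 the levels were 0.09, -0.58, 0.61 and -0.42. Replicates 2 and 4 of CES lay inside the COS range and replicates 1 and 3 above it. The difference was 0.67 (SE 0.21), or 1.59-fold, with a limma adjusted p of 0.036. It rests on the probe at chr10:83044389-83044448 shown above, since the other, at chr10:83047792-83047851, was not well above background in any rat. Of the 4 COS rats only 3 showed Cacna1g well above background, against all 4 CES rats, so the size of its fold is uncertain too.

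Cacna2d1, the alpha2delta subunit bound by gabapentin, had log2 levels of 5.98, 5.87, 6.35 and 5.71 in COS replicates 1 to 4 and 6.61, 6.32, 6.53 and 6.37 in CES replicates 1 to 4. COS replicate 3 reached the low end of the CES values, and the other 3 COS rats were below every CES rat. The difference was 0.48 (SE 0.16), or 1.40-fold, with a limma adjusted p of 0.040, from the single probe at chr4:15139912-15139971. The other alpha2delta gene of the set, Cacna2d2, had a foreground of 1.69 to 2.29 times its background and was not well above background in any rat.

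**Figure D1:**
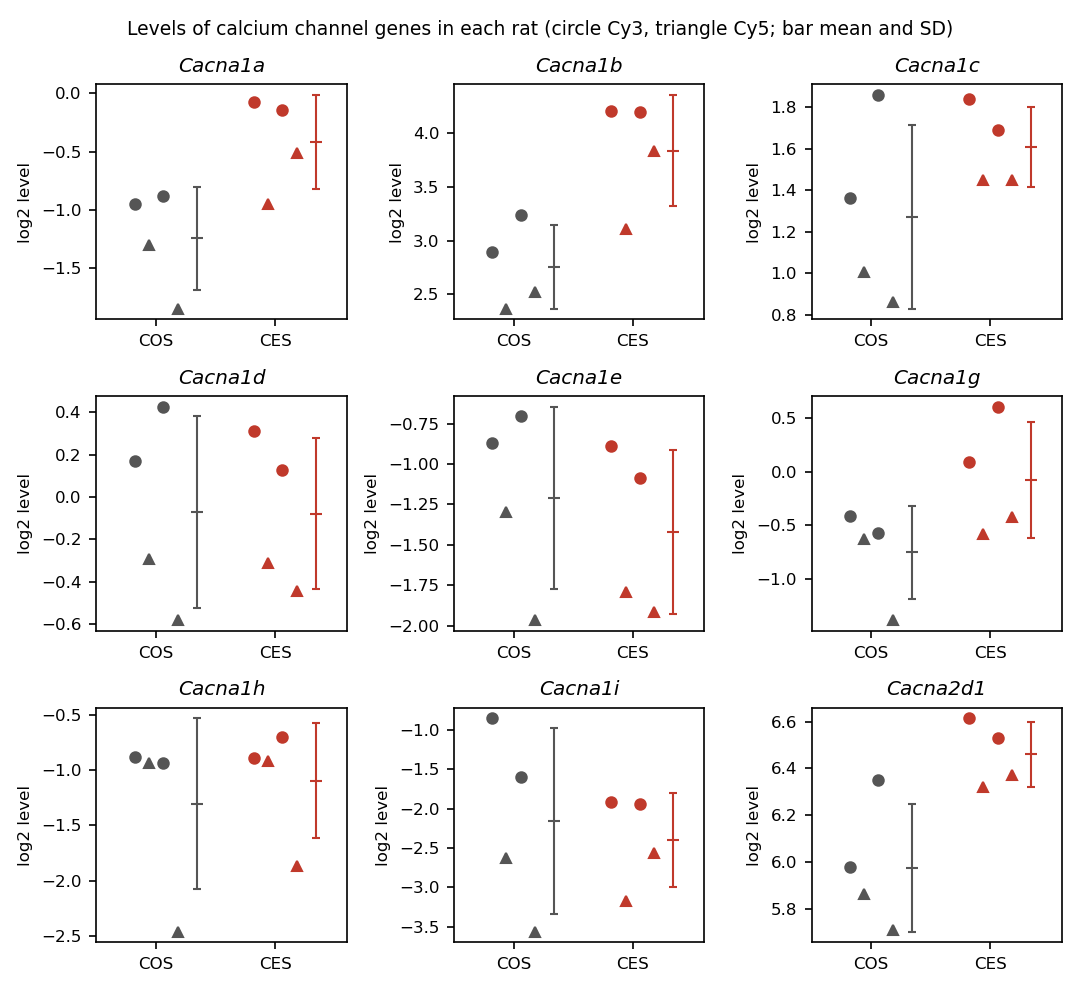
Log2 level (vertical axis, relative to the median valid spot of the channel) of the 9 quantified genes in each COS (grey) and CES (red) rat, circles for Cy3 and triangles for Cy5, with the mean and SD as a bar beside each group. For Cacna1b the CES rats run from 3.11 to 4.20 and the COS rats from 2.37 to 3.24, and within each symbol shape every CES rat is above every COS rat.

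The rats were also compared within each dye. Under the main processing no gene of the 9 had groups that did not overlap over all rats. Of all genes 21.4% had such groups, 1.61% with CES higher and 19.8% with CES lower. The count was 6 after loess, after quantile normalization, with scaling over the same spots and in the deposited table. In those settings 29.7% to 35% of all genes had such groups. The orders within each dye, given next, are those of the main processing. Within Cy3 and within Cy5, each with 2 rats a group, 4 of the 9 genes had every CES rat above every COS rat in both dyes, against 7.43% of all genes, and none had the opposite order, against 33.6%. Those 4 were Cacna1a, Cacna1b, Cacna1g and Cacna2d1. The within-dye difference of Cacna1b was 1.14 in Cy3 and 1.02 in Cy5 on the log2 scale. It was 0.81 and 0.84 for Cacna1a, and 0.84 and 0.50 for Cacna1g. For Cacna2d1 it was 0.41 and 0.56. COS replicate 4 was the lowest COS rat in 8 of the 9 genes and CES replicate 2 the lowest CES rat in 6.

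Neither L-type gene was called under the main processing. Cacna1c, whose product couples synaptic activity to transcription, had log2 levels of 1.37, 1.01, 1.86 and 0.86 in COS replicates 1 to 4 and 1.84, 1.45, 1.69 and 1.45 in CES replicates 1 to 4. COS replicate 3 was the highest of all 8 rats. The difference was 0.33 (SE 0.17), with a 95% interval of -0.06 to 0.72 and a limma adjusted p of 0.164, but it was 0.71 to 0.73 and called higher after loess, after quantile normalization, with common-spot scaling and in the deposited table (adjusted p from 0.022 to 0.026). The probe behind it, at chr4:154895974-154896033, was spotted 10 times on each array, and the SD over those spots ran from 0.22 to 0.29 per rat. The other Cacna1c probes, at chr4:154936537-154936596 and chr4:155012572-155015350, were not valid in every rat and do not enter the value. The latter had a foreground of 1.53 to 4.53 times its background in COS and 1.40 to 1.73 in CES. It was well above background in 1 COS rat. Cacna1d, which encodes the L-type channel that opens at lower voltages, had a difference of -0.01 (95% interval -0.37 to 0.35, limma adjusted p = 0.971), or 0.37 after loess without a call (adjusted p = 0.075), with 4 probes that did not move alike.

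Cacna1e, the R-type pore subunit, ran from -1.97 to -0.70 in COS and from -1.92 to -0.89 in CES on the log2 scale. The difference was -0.21 (95% interval -0.62 to 0.20, limma adjusted p = 0.397), and 0.10 after loess, also without a call (adjusted p = 0.646). Cacna1h, a T-type subunit, was at -0.88, -0.93, -0.94 and -2.46 in COS replicates 1 to 4 and at -0.89, -0.92, -0.70 and -1.86 in CES replicates 1 to 4. Replicate 4 was low in both groups while the other 6 rats lay close together. The difference was 0.21 (95% interval -0.51 to 0.93, limma adjusted p = 0.644). Cacna1i, the remaining T-type subunit, was well above background in 2 CES rats and none of the COS rats, so no fold is given. Its log2 level ran from -3.56 to -0.85 in COS and from -3.17 to -1.92 in CES (limma adjusted p = 0.558).

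**Figure D2:**
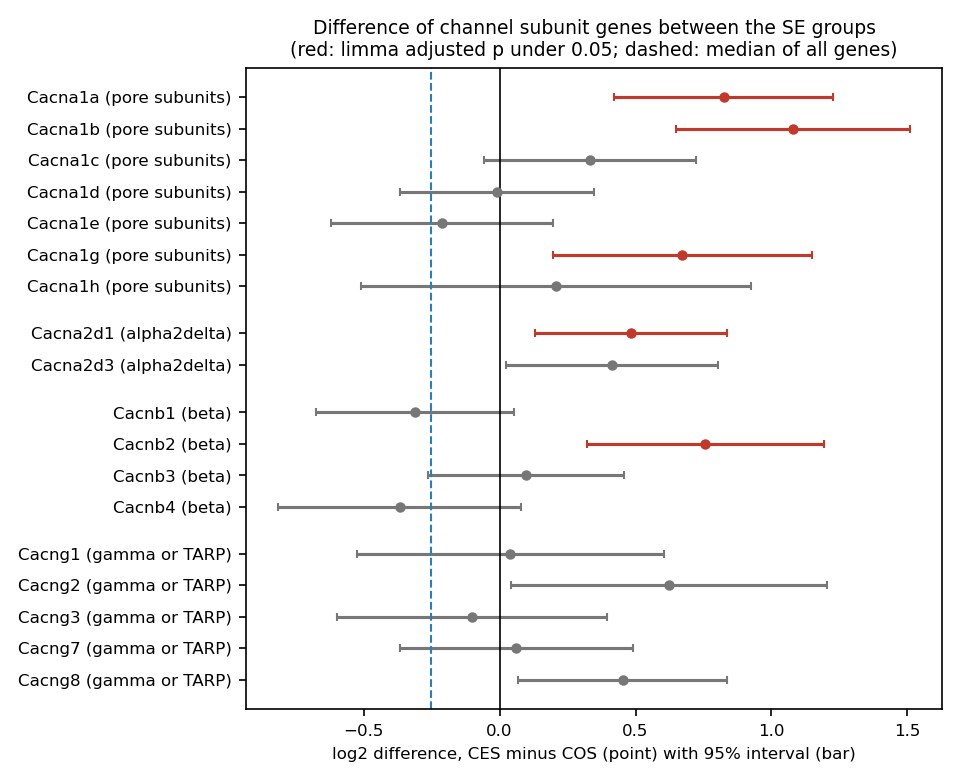
Difference between CES and COS on the log2 scale (horizontal axis; point with its 95% interval) for 8 of the genes described and 10 other channel subunit genes, ordered by role, with calls in red and the median of all genes as a dashed line. Cacna1i is left out because no COS rat showed it well above background. The calls are Cacna1a (0.83), Cacna1b (1.08), Cacna1g (0.67), Cacna2d1 (0.48) and Cacnb2 (0.76).

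Of the 22 probes of these genes, 16 were quantified in all rats, of which 4 were called higher and 2 lower, where 5.48% of all probes were called higher and 29% lower. Probes of the same gene had differences of opposite sign in Cacna1a, Cacna1d and Cacna1e. Since the main processing scaled each rat by 1 factor, the log2 ratio of a pair of probes within a rat does not depend on that factor. Loess is not such a factor and can change the ratio. The ratio was compared between groups for the 10 pairs of probes that at least 1 rat showed well above background. That comparison was chosen after the probe values had been seen. In 6 of the 10 pairs the ratios of the groups did not overlap, each with an exact permutation p of 0.0286, two-sided. That is the smallest p that 4 against 4 rats allow, and it gave a Benjamini-Hochberg adjusted p of 0.0476 over the 10 pairs. Pairs within Cacna1d and within Cacna1e share probes and are not separate tests. As these same values prompted the comparison, its p-values describe the ratios and are no independent test of them. How often probe pairs of other genes on the array part in this way was not counted. An array ratio shows that probes changed unequally and not which of them stayed level.

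For Cacna1a the probe at chr19:25186885-25186944, further 3′, was at -0.50, -0.71, -0.46 and -1.35 in COS replicates 1 to 4 and at 0.70, -0.11, 0.61 and 0.29 in CES replicates 1 to 4. Every CES rat was above every COS rat. The difference on the log2 scale was 1.13 (SE 0.19, limma adjusted p = 0.0041 over all probes). The probe at chr19:25194788-25194847, which lies 7903 bases further 5′ and whose sequence is shown above, differed by -0.34 (SE 0.19, limma adjusted p = 0.194), with a signal well above background in 2 rats of each group. The log2 ratio of the upstream to the downstream probe was -1.12, -1.59, -1.03 and -1.26 in COS replicates 1 to 4 and -2.58, -3.13, -2.41 and -2.78 in CES replicates 1 to 4. The ratios did not overlap, and CES minus COS was -1.47 (exact permutation p = 0.0286), with -0.90 after normexp and -1.94 from the processed signal.

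The Cacna1e probes shown above had differences of opposite sign. The probe at chr13:69367332-69367391, which ends in the stop codon shown in capitals, was at -0.76, -0.64, 0.01 and -1.19 in COS replicates 1 to 4 and at -1.10, -1.73, -1.29 and -1.91 in CES replicates 1 to 4. COS replicate 4 overlapped with the CES rats, of which 2 showed the probe well above background, and the difference was -0.86 (SE 0.21, limma adjusted p = 0.013), or -0.53 after loess, where it was not called (adjusted p = 0.092). The probe 5279 bases further 5′, at chr13:69372611-69372665, was at -0.91, -1.62, -1.33 and -2.59 in COS replicates 1 to 4 and at -0.40, -1.35, -0.77 and -1.68 in CES replicates 1 to 4. It differed by 0.56 (SE 0.23, limma adjusted p = 0.089) and cleared the background mark in 1 COS and 3 CES rats. This probe was called with the replicate number as a block (limma adjusted p = 0.031) and after loess (0.85, adjusted p = 0.035).

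The log2 ratio of the upstream to the downstream Cacna1e probe was -0.15, -0.98, -1.34 and -1.40 in COS replicates 1 to 4 and 0.70, 0.38, 0.51 and 0.22 in CES replicates 1 to 4. All 4 COS rats were below 0 and all 4 CES rats above it, a shift of 1.42 (exact permutation p = 0.0286). As each probe was dim in the group where it was lower, the size is uncertain, and it was 0.68 after normexp and 2.34 from the processed signal. The probe nearest the 5′ end, at chr13:69683827-69683886, differed by -0.15 (SE 0.20, limma adjusted p = 0.582). Its log2 ratio to the probe at chr13:69372611-69372665 shifted by -0.71 without overlap (exact permutation p = 0.0286), or -0.29 after normexp, and its ratio to the probe closest to the 3′ end by 0.71 with overlap (exact permutation p = 0.0571). A further probe, at chr13:69452815-69452874, was not well above background in any rat.

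The 4 Cacna1d probes, taken from 5′ to 3′, differed by 0.39, -0.25, -0.61 and -0.37 on the log2 scale. The probe nearest the 5′ end, at chr16:5465138-5465197 with the sequence above, was not called (SE 0.17, limma adjusted p = 0.101), though it was after loess (adjusted p = 0.024). The probe at chr16:5401122-5401181 was lower (SE 0.21, limma adjusted p = 0.047), a call lost after loess (adjusted p = 0.321). The ratio of the first to each of the 3 downstream probes rose in CES, by 0.65, 1.00 and 0.77 in the same order, and none of these ratios overlapped between the groups (exact permutation p = 0.0286 each). After normexp the first and second of these shifts were 0.47 and 0.68, with exact permutation p of 0.0857 and 0.114. The 3 downstream probes did not separate among themselves, with exact permutation p from 0.171 to 0.686. The signs of single probes depended on the scaling, since after loess the 4 differences were 0.79, 0.12, -0.32 and 0.01.

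**Figure D3:**
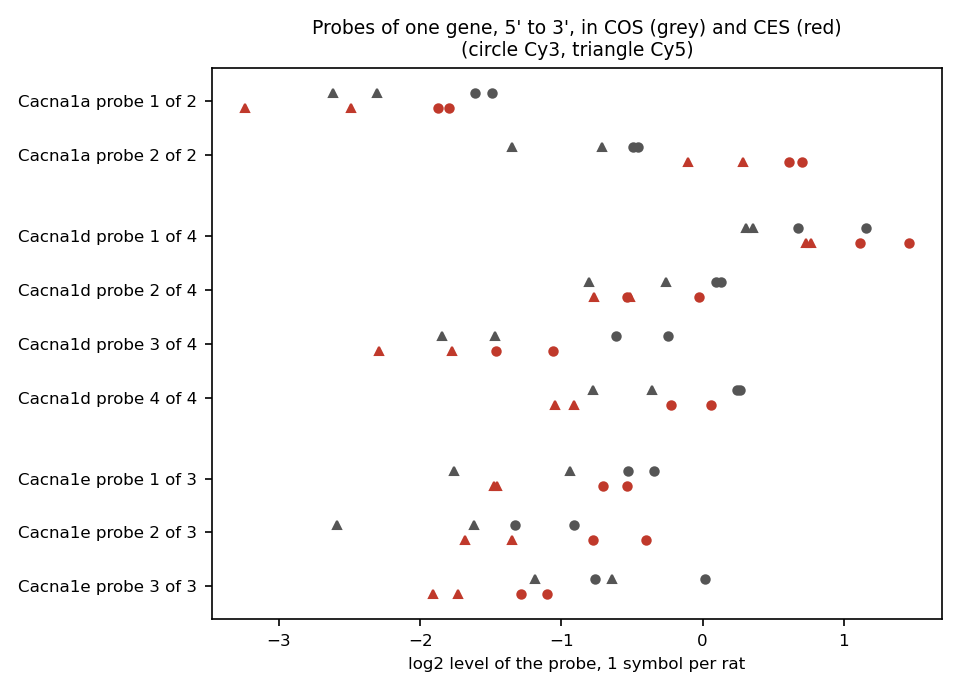
Log2 level of each probe (horizontal axis, relative to the median valid spot of the channel) in every COS (grey) and CES (red) rat for Cacna1a, Cacna1d and Cacna1e, with probes in 5′ to 3′ order and circles for Cy3, triangles for Cy5. The downstream Cacna1a probe is at -1.35 to -0.46 in COS and -0.11 to 0.70 in CES, and the upstream probe at -2.62 to -1.49 in COS and -3.24 to -1.80 in CES. The Cacna1e probe that was not well above background in any rat is left out.

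The other subunit genes of the family were mostly not called. Of 16 on the array 10 were quantified, 1 was higher and none lower. Cacnb2, a beta subunit that carries the pore to the membrane and slows its inactivation, was at 2.95, 2.54, 3.15 and 2.52 in COS replicates 1 to 4 and at 3.64, 2.97, 3.83 and 3.75 in CES replicates 1 to 4. CES replicate 2 lay inside the COS range and the others above it, with a difference of 0.76 (SE 0.20, limma adjusted p = 0.017). Its brighter probe differed by 0.78 (limma adjusted p = 0.015 over all probes) and its dimmer probe by 0.29 (adjusted p = 0.263). With the processed signal Cacnb2 was not called (0.55, limma adjusted p = 0.056). The other beta subunits differed by -0.31 (Cacnb1, adjusted p = 0.164), 0.10 (Cacnb3, adjusted p = 0.672) and -0.37 (Cacnb4, adjusted p = 0.180) on the log2 scale. Cacna2d3, a further alpha2delta gene, differed by 0.41 (limma adjusted p = 0.094), and by 0.73 with a call after loess (adjusted p = 0.021). The gamma subunit and TARP genes, of which several act on AMPA receptors, had 5 members quantified and none called under the main processing, while after loess Cacng2 (0.97, limma adjusted p = 0.034) and Cacng8 (0.84, adjusted p = 0.025) were called higher.

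Of 30 genes whose products hold or tune these channels, 26 were quantified, of which 4 were higher and 5 lower, where 5.8% of all genes were higher and 28.3% lower. With the other subunit genes included, the calls were 5 higher and 5 lower, but 12 higher and 2 lower after loess, after quantile normalization, with common-spot scaling and in the deposited table alike. The rises included Nlgn1, a postsynaptic adhesion protein (0.73 on the log2 scale, SE 0.15, limma adjusted p = 0.0073), Akap5, which anchors protein kinase A and calcineurin at L-type channels (1.19, adjusted p = 0.019), and Syt1, the calcium sensor of vesicle release (0.59, adjusted p = 0.027). For Nlgn1 the COS rats lay between 1.38 and 1.87 and the CES rats between 2.06 and 2.73. Akap5 did not separate the groups, as CES replicate 2 at 1.36 was among the COS values of 1.10 to 1.93.

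The falls included the thrombospondins, secreted proteins that bind the alpha2delta subunit. Thbs4 was at 1.34, 1.63, 2.04 and 0.98 in COS replicates 1 to 4 and at -1.61, 0.32, -1.60 and -2.92 in CES replicates 1 to 4, a difference of -2.95 (SE 0.56, limma adjusted p = 0.0060), and 2 of the 4 CES rats showed it well above background. All 4 CES rats were below every COS rat. Thbs2 differed by -1.64 (limma adjusted p = 0.0081), likewise well above background in 2 CES rats. Both thrombospondins were still lower after loess (Thbs4 -2.64, adjusted p = 0.031; Thbs2 -1.31, adjusted p = 0.044). The microglia markers, of which 3 of 5 were lower in CES, fell alongside (summed log2 level 5.90 to 6.59 in COS and 4.89 to 5.72 in CES), and their part was not tested. The active zone genes Erc2 and Rims2, which build the presynaptic release site, differed by -0.88 (adjusted p = 0.010) and -0.59 (adjusted p = 0.044). Neither was called after loess, where Erc2 differed by -0.54 (adjusted p = 0.061) and Rims2 by -0.20 (adjusted p = 0.397). Rem2, a small GTPase that inhibits high-voltage-activated channels, differed by -0.86 (limma adjusted p = 0.025), and by -0.48 without a call after loess (adjusted p = 0.188). The 5 calmodulin and calmodulin-like genes were not called under the main processing.

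None of 4 neuron markers was called (summed log2 level 7.97 to 8.41 in COS and 8.17 to 8.60 in CES). None of 5 oligodendrocyte and none of 4 choroid plexus markers was called either. Of 5 interneuron markers 1 was lower (Sst), and the summed log2 level of the list, most of it Sst, was 7.48 to 8.33 in COS and 6.17 to 7.28 in CES. Pvalb differed by 0.51 without a call (limma adjusted p = 0.072). Of 4 endothelial markers 2 were lower, of 3 thalamus markers 1 was lower, and of 5 astrocyte markers 2 were higher (Aldh1l1 and Gja1). Gfap, another astrocyte marker, differed by -1.19 without a call (limma adjusted p = 0.062). The summed log2 level of the astrocyte list overlapped between the groups, at 7.40 to 7.57 in COS and 7.23 to 7.84 in CES. The part of these lists in the channel genes' differences was not tested.

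The gene whose centred levels ran closest to those of Cacna1g over the 8 rats, among all genes outside the set, was Pfkl, a glycolytic enzyme, with a root-mean-square difference of 0.077 on the log2 scale. For Cacna1e it was Ash1l, a histone methyltransferase, at 0.079. The nearest profiles of the other 7 genes belonged to transcripts that the files name by sequence identifiers, at 0.054 to 0.18.

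**Figure D4:**
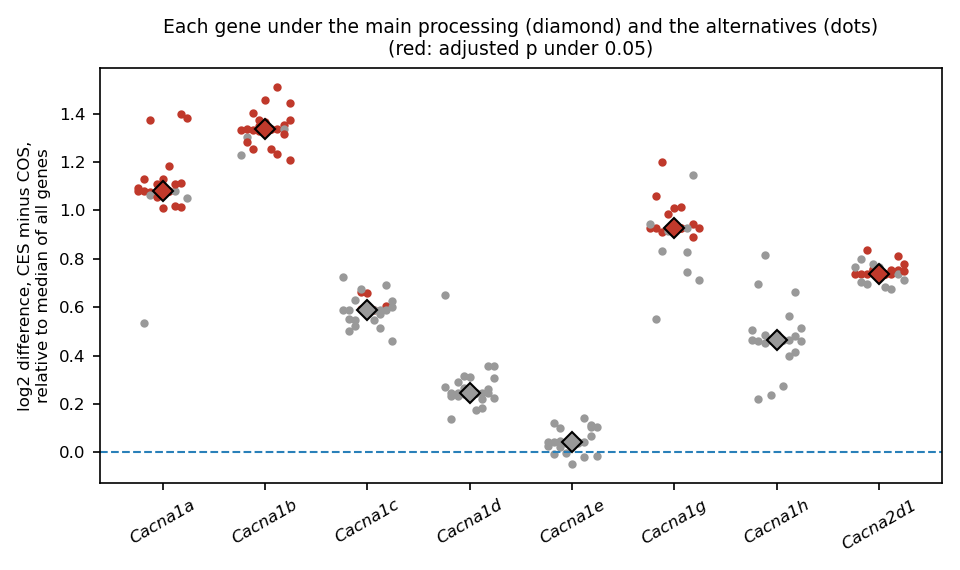
Difference between CES and COS of 8 genes on the log2 scale, relative to the median of all genes (vertical axis), under the main processing (diamond) and each alternative (dot), with calls in red. Cacna1b stays between 1.21 and 1.51 and Cacna1e between -0.05 and 0.14.

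The number of genes called in the set depended on single rats and on the test. It was 1 without COS replicate 3 and 2 without COS replicate 1, COS replicate 4 or CES replicate 1. Limma called none after normexp background correction (1 at an unadjusted p under 0.05) or with the Cy5 rats alone (2 unadjusted). Calls over all genes fell as well, from 7276 to 1171 without COS replicate 3 and 2988 without CES replicate 1. They fell to 586 after normexp and 2 with the Cy5 rats. The difference of Cacna1b stayed above 0 under every one of the 27 settings tried, between 0.93 and 1.48 on the log2 scale. Cacna1b was called in 24 of them, Cacna1a in 22 of 26, Cacna2d1 in 17 of 27 and Cacna1g in 16 of 26. The lowest difference was also above 0 for Cacna1a (0.39), Cacna1g (0.41), Cacna2d1 (0.41) and Cacna1c (0.15). Cacna1c was called in 5 of 27.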

How the data were processed

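Groups, replicate numbers and dyes came from the sample labels. The deposited scanner files give, per channel, the mean intensity of each spot and its local background median, as the authors obtained them with Agilent Feature Extraction 10.7.3.1 (per the submitters' processing notes), with probe positions on rn4. The authors also deposited a log2 table, whose columns equal the log2 of median signal minus background median less a constant per column. A spot was valid where its foreground was at least 2 times its background. Mean signal minus background median was scaled to the median valid spot of its channel, averaged per gene across spots valid in every rat, and put on the log2 scale, which favors a gene's brighter probes. Of 43379 spots, 27642 were valid in all rats, and the median SE of a difference was 0.20 on the log2 scale. No spot was saturated. The number of arrays limits the precision.

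The groups were tested against each other in R 4.3.3 with limma 3.58.1, two-sided, taking dye as a covariate and array as a random block by duplicateCorrelation (statmod 1.5.0). P-values were adjusted by Benjamini-Hochberg over all genes and called under 0.05. As each array held a single group, array and group cannot be fully told apart. The script was tested on simulated data. Same-numbered rats of the groups deviated together over genes (r = 0.32, 0.21, 0.29 and 0.34 for numbers 1 to 4). They share a dye, and after the dye was removed r was -0.17, -0.28, -0.20 and 0.08, so the numbers pair the rats through the dye.

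All members were named. Of the other lists, every gene called was named except 1 that is not reported here, as were Cacnb1 to Cacnb4 and Cacna2d3, and the gene nearest to a member in its centred levels where the files give it a gene symbol. The members and lists were chosen with earlier results of these data known. Gene names are those of the array design. Of the 22 probes, 14 matched the same symbol in RefSeq and none another. Alternatives covered background correction (normexp with an offset of 50), the processed intensity, normalization, scaling, filters, names, probe choice, outlier flags, blocks, dyes, the methods' t-test, the deposited table and leaving out each rat. The ratios of probes and their alternatives were added after seeing the data. Other software was scipy 1.17.1 with pandas 2.3.3 and numpy 2.4.6 under Python 3.11.15, matplotlib 3.10.9, and the data.table package in version 1.17.8.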

Additional observations from a re-analysis of the deposited data

Results flagged for a closer look

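Cacna1h was at -2.46 on the log2 scale in COS replicate 4, far below the other 3 COS rats, which lay between -0.94 and -0.88. The gap to the nearest rat was 0.962 of the range of the group. Of 38 groups examined in this way this was the only such rat, and chance alone marks about 1 group in 20. The same probe was also lowest in CES replicate 4, at -1.86.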

How the results depend on the processing

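Among the calcium channel genes, 4 were called under the main processing, and the count was 0 after normexp (1 unadjusted), 2 without a filter on valid spots, 2 of the 4 genes well above background in all rats, 0 with the methods' t-test (3 unadjusted), 2 with the Cy3 rats, 0 with the Cy5 rats (2 unadjusted), 1 to 4 when a rat was left out, and 5 after loess, after quantile normalization, with common-spot scaling and in the deposited table. Non-overlapping genes of the set numbered 0, but 2 with the processed signal (16% of all genes), 6 after loess (34.1%), 6 after quantile normalization (35%), 6 with scaling over common spots (29.7%), 5 when spots had to reach 3 times background (31.6%), 1 with the brightest probe (21.7%) and 6 in the deposited table (30.1%). Over all genes 7276 were called, and 586 after normexp, 4816 without a filter, 4100 at 3 times background, 0 with the t-test (6103 unadjusted), 2 with the Cy5 rats and 1171 to 8837 when a rat was left out. Among the other channel and regulator genes the 10 calls became 2 after normexp, 0 with the t-test (8 unadjusted), 4 with the Cy3 rats, 0 with the Cy5 rats (6 unadjusted), 1 to 13 when a rat was left out, and 14 (12 higher, 2 lower, against 5 and 5) after loess, after quantile normalization, with common-spot scaling and in the deposited table. Per probe 8872 calls became 5845 after loess. With the replicate number as a block, the pairing by dye, 7865 genes, 4 of the channel genes and 9667 probes were called, and apart from a Cacna1e probe at chr13:69372611-69372665 it changed no call of a channel gene, its probes or a regulator gene, while the marker genes were not run with it. No called difference changed sign. Of the 6 probe pairs without overlap, 6 stayed at the smallest possible p after loess and with the processed signal and 4 after normexp, but the sizes moved, as given in the report. The causes were not tested. Cacna2d2, quantified without a filter, differed by 0.32 (limma adjusted p = 0.421).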
